A study of Homo sapiens with 6 samples.

Results

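The MYC, MAX and MXD network is a set of basic helix-loop-helix zipper transcription factors, here the 10 genes MYCN, MYC, MYCL, MAX, MXD1, MXI1, MXD3, MXD4, MNT and MGA. They were chosen by symbol from the 64252 rows of the deposited gene count matrix, and each symbol matched 1 Ensembl gene. All 10 passed the filter on low counts, which 18734 genes passed. The cells were SK-N-BE(2), an established human neuroblastoma line with amplified MYCN, and all 6 bulk RNA libraries came from this line. One group (2 libraries) carried a non-targeting control hairpin, labelled shControl or shNC. The other groups (2 libraries each) carried shBCAT1#1 or shBCAT1#2, called hairpin 1 and hairpin 2 here, against BCAT1, the cytosolic branched-chain amino acid transaminase. Time after hairpin delivery is not given in the sources used here, and the labels do not say whether replicates were separate cultures, so each p-value reflects the spread among the libraries alone, which may be technical. The series title concerns N-Myc stabilization by BCAT1, and these data hold transcripts, not protein.

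MYC proteins bind DNA only as heterodimers with MAX, at E-boxes of the sequence CACGTG, and there recruit acetyltransferase complexes that raise transcription. MXD proteins and MNT compete for the same MAX partner and the same E-boxes, and recruit the SIN3 histone deacetylase complex, which lowers transcription. MGA also pairs with MAX, carries a T-box DNA-binding domain, and is the scaffold of a Polycomb complex named PRC1.6. In neuroblastoma with amplified MYCN, N-Myc is the dominant member of the family.

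Total counts per library ran from 32333416 to 39321388. Levels in CPM are the deposited counts scaled to library size with TMM. BCAT1, the targeted gene, stood at 459 and 475 CPM in control, 55.8 and 55.3 CPM with hairpin 1, and 116 and 111 CPM with hairpin 2. Both hairpin groups lay below control in every library. The line's label was checked against markers: 11 of 12 adrenergic neuroblastoma genes reached 1 CPM in every library. Their summed level was 2720 to 2770 CPM in control, 2390 to 2480 CPM with hairpin 1 and 1960 to 1980 CPM with hairpin 2. The 12 mesenchymal neuroblastoma genes, 11 of them at 1 CPM or above in every library, summed to 7270 to 7290, 7260 to 7660 and 5570 to 5760 CPM in the same order. The 9 fibroblast genes, 7 of them at that level, summed to 1380 to 1390, 887 to 890 and 1010 to 1020 CPM, with COL1A2 and FAP below 1 CPM. Leukocyte genes reached it for 2 of 7 and summed to 38.7 to 43.2, 33.4 to 38.6 and 17.4 to 20.5 CPM, with PTPRC, CD3E and LYZ among those below 1 CPM. Schwann cell precursor genes reached it for 1 of 7 (6.94 to 10.9 CPM summed; SOX10, S100B and FOXD3 below 1 CPM) and epithelial genes for 4 of 7 (17.8 to 26.7 CPM summed; CDH1, KRT5 and KRT14 below 1 CPM). These sums differed between groups, and their part in the member results was not tested. Abundant genes weigh most: VIM, named after its values were seen, held 5650 and 5610 CPM of the mesenchymal sum in control. By the test described below, 6 of 11 adrenergic and 5 of 12 mesenchymal genes rose with hairpin 1, while 5 and 4 fell. With hairpin 2, 1 gene of each list rose, while 9 and 5 fell. Of all genes 24.2% rose and 24.9% fell with hairpin 1, and 23.9% and 25.4% with hairpin 2.

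Promoter sequence is shown for the members whose window held a motif that bears on the network: the E-box CACGTG, at which the network's dimers bind, or a site for E2F factors, a family with a member, E2F6, in PRC1.6. RefSeq (GRCh38.p14) gave 14 windows for 9 members, each the 250 bases before an annotated start, read on the gene's strand. The E2F letters searched on both strands were TTTCCCGC, TTTGGCGC, TTTCGCGC and TTTGCCGC, and TATAAA was searched for a TATA box. MYCN (chromosome 2, 15940300 to 15940549, plus strand) held a pair of overlapping E2F matches, 1 on each strand. MXD4 (chromosome 4, minus strand) and MNT (chromosome 17, minus strand) each held an E-box. A start of MGA inside the gene (chromosome 15, plus strand) held an E2F match. Motifs are in capitals, and bases that GENCODE places in exons of protein-coding genes are left out, so the stretches run from 2262295 to 2262359 for MXD4, from 2401119 to 2401310 for MNT and from 41660526 to 41660746 for MGA.
MYCN: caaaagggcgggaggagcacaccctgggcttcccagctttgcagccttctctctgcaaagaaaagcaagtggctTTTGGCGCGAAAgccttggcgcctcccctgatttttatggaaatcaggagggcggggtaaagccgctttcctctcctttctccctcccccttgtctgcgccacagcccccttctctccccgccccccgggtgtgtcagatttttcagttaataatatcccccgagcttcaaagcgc
MXD4: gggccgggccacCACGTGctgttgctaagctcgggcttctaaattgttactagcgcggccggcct
MNT: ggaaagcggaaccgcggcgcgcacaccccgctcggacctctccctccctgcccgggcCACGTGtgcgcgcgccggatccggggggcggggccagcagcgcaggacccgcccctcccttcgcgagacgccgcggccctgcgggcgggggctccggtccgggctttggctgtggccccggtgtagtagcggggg
MGA: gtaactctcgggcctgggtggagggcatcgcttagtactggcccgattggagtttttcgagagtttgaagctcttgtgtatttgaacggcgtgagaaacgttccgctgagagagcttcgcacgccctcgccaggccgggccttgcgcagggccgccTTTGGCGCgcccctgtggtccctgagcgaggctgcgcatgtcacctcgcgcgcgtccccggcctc
Of the 14 member windows 2 held an E-box, 2 an E2F match and 0 the TATA letters. Over all 35116 RefSeq windows of the same length, 6.3% held the E-box, 2.8% an E2F match and 10.7% TATAAA. A match describes letters, not binding. The 4 genes with a match did not share a direction: over both hairpins against control MYCN fell, MNT and MGA rose (MGA not after correction for GC content and length), and MXD4 did not pass the test.

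MYCN was by far the most abundant member. On the length-scaled TPM scale (counts per merged GENCODE exon length, scaled to the library's sum), the control libraries held 3050 and 3020 TPM of MYCN, above 99.9% of the tested genes with a length. It made up 99.4% to 99.7% of the summed MYCN, MYC and MYCL level in every library. MAX, the obligate partner, came next in control cells with 62.8 ± 1.3 TPM (SD, n = 2), followed by MXD4 with 43.6 ± 3.4 TPM. MXI1 (20.1 ± 1.4 TPM) and MXD3 (18.9 ± 3.2 TPM) followed, and their ranges overlapped, so their order is not resolved. MYC had 10.7 ± 0.84 TPM, MGA 9.74 ± 0.059 TPM, MNT 8.91 ± 0.15 TPM and MXD1 4.31 ± 0.34 TPM. MYCL was lowest with 0.359 ± 0.04 TPM. Each other neighbour in this order was separated by non-overlapping ranges of 2 libraries, which allow no test. The order also rests on merged exon lengths, which join the exons of all annotated transcripts of a gene. Levels on other lengths were not computed.

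**Figure D1:**
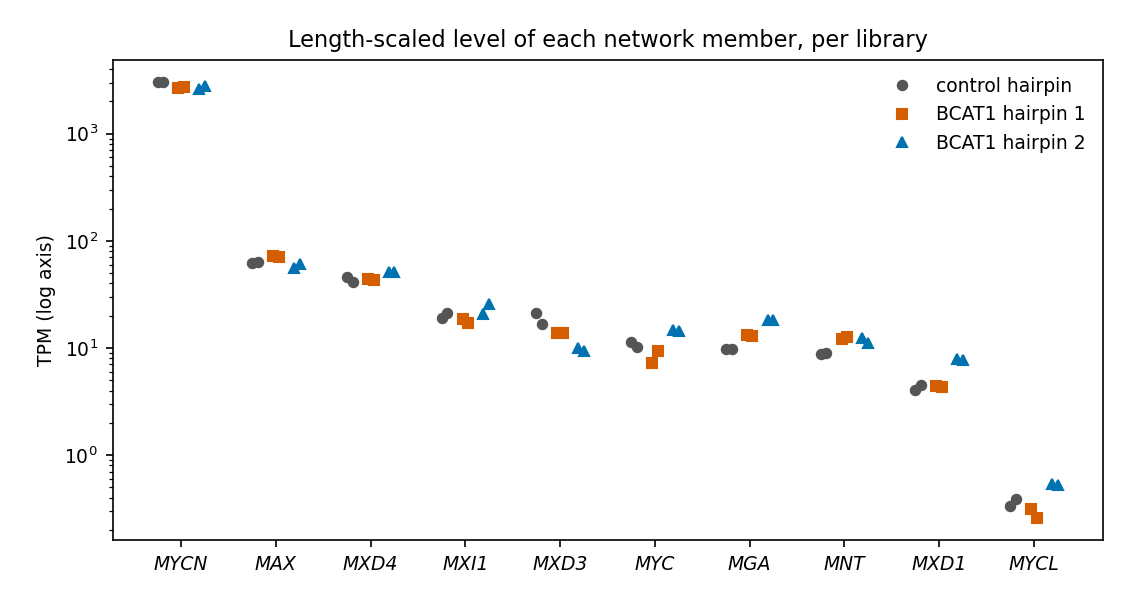
Length-scaled level of each member on a log axis (TPM), 1 point per library, by group, with members in the order of their control level. MYCN lies at 2640 to 3050 TPM in all 6 libraries, and every other member lies at or below 72.8 TPM.

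The order changed under the hairpins. In hairpin 2 cells MGA reached 18.4 and 18.1 TPM, the fifth level among the members, whereas MXD3, at 10 and 9.41 TPM, dropped to the eighth. With hairpin 1, MGA (13.2 and 12.8 TPM) and MNT (12.2 and 12.6 TPM) stood above MYC (7.29 and 9.42 TPM), the reverse of the control order. MYCN, MAX and MXD4 kept the first 3 places in every group.

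The first comparison asked which members differ between BCAT1 knockdown and control over both hairpins. MGA, MNT and MXD1 passed the test upwards, MYCN and MXD3 downwards, and MYC, MYCL, MAX, MXI1 and MXD4 did not pass. That is 5 of 10 members called by edgeR's quasi-likelihood test at a Benjamini-Hochberg adjusted p under 0.05, against 50% of all 18734 genes (23.6% higher and 26.4% lower, 4419 and 4942 genes), so the members' share equals the background. When libraries are scaled by total counts alone, the split over all genes becomes 5488 higher and 3961 lower. The median log2 fold change was −0.09 over the members and −0.01 over all genes, and the median absolute change was 0.2 and 0.33. Only MYCN and MXD3 below control, and MNT and MGA above it, had CPM in all 4 knockdown libraries on 1 side of both control libraries, 4 of 10 members against 45.6% of all genes (22% higher and 23.6% lower). In bulk RNA, fewer cells of a type and less RNA per cell cannot be told apart.

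Fold changes in these data followed gene composition, so corrected values are given beside those of the members and of the named genes of the lists, where the fit holds them. Genes are not independent of each other, and over 13907 of them that code for protein the log2 fold change over both hairpins had a Spearman correlation of −0.45 with the GC content of the transcripts and 0.38 with their length. For hairpin 1 the correlations were −0.31 and 0.29, for hairpin 2 −0.46 and 0.37, and between the hairpins −0.13 and 0.06. Corrected values below come from a fit in which a smooth trend of each library on GC content and exon length was removed. Whether this trend arose in the cells or in library handling was not tested, and the correction removes either. Corrected values therefore stand beside the uncorrected ones and do not replace them. In that fit 53% of the 13907 genes were called over both hairpins (60.6% of the same genes without correction), and of the members MYCN and MXD3 fell and MNT rose. MGA and MXD1 did not pass.

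**Figure D2:**
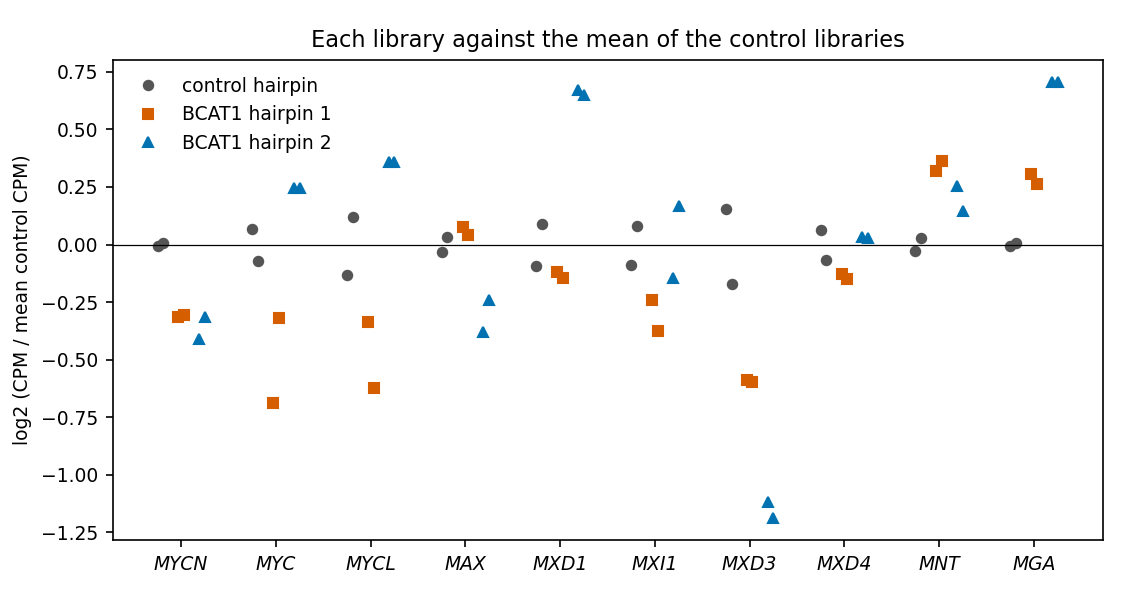
Level of each member in each of the 6 libraries as log2 of CPM over the mean of the control libraries. All 4 knockdown libraries lie below both controls for MYCN and MXD3 and above both for MNT and MGA. For MYC, MYCL, MAX and MXD1 the hairpins lie on opposite sides of both controls.

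Among the MYC proteins, MYCN (ENSG00000134323, hg38 chromosome 2, 15940564 to 15947007, plus strand, 3 merged exons) encodes N-Myc. Its libraries held 2250 and 2270 CPM in control, 1820 and 1830 CPM with hairpin 1, and 1700 and 1820 CPM with hairpin 2. Each knockdown library was lower than each control library, and the hairpin groups lay close together. The fall was 1.24-fold with hairpin 1 (log2 fold change −0.31, 95% interval −0.41 to −0.21, edgeR adjusted p = 0.00038) and 1.29-fold with hairpin 2 (−0.36, −0.46 to −0.27, edgeR adjusted p = 0.00016). The interval of the difference between the hairpins was −0.15 to 0.04 on the log2 scale. After correction for GC content and length the fall over both hairpins was smaller, −0.11 (edgeR adjusted p = 0.019), with −0.1 for hairpin 1 and −0.11 for hairpin 2. On TPM values the change was −0.17, but the median of all genes stands at 0.16 on that scale. The uncalled values of MYC, MYCL, MAX, MXI1 and MXD4 over both hairpins changed sign on it, to 0.04, 0.11, 0.04, 0.02 and 0.11.

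MYC (ENSG00000136997, chromosome 8, 127735434 to 127741434, plus strand), the broadly expressed c-Myc gene, went apart by hairpin. It stood at 9.63 and 8.75 CPM in control, 5.7 and 7.36 CPM with hairpin 1 and 10.9 CPM in both hairpin 2 libraries. Hairpin 1 lay below control and hairpin 2 above, with no overlap between any of the groups. MYC fell 1.41-fold with hairpin 1 (log2 −0.5, SE 0.14, edgeR adjusted p = 0.017) and did not pass with hairpin 2 (0.25, SE 0.14, edgeR adjusted p = 0.16). The difference between the hairpins itself passed (0.75, interval 0.43 to 1.06, edgeR adjusted p = 0.0024). The hairpin 1 call was lost without replicate 1 of control (−0.43, edgeR adjusted p = 0.083), without replicate 1 of hairpin 1 (−0.32, 0.1) and after correction (−0.26, 0.098), whereas the corrected hairpin 2 value was 0.56 (edgeR adjusted p = 0.0029).

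MYCL (ENSG00000116990, chromosome 1, 39895426 to 39902256, minus strand), the L-Myc gene, had few reads. It had 18 and 21 counts in control, 16 and 11 with hairpin 1, and 27 and 26 with hairpin 2. No comparison passed before or after correction, and the interval over both hairpins, −0.76 to 0.65 on the log2 scale, leaves its change undetermined at this depth.

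MAX (ENSG00000125952, chromosome 14, 65006174 to 65102695, minus strand) is the dimer partner of every other member. It stood at 77.9 and 81.5 CPM in control, 84 and 82.1 CPM with hairpin 1, and 61.2 and 67.5 CPM with hairpin 2. Both hairpin 2 libraries were below all the others, while hairpin 1 lay just above control. The fall with hairpin 2 was 1.24-fold (log2 −0.31, interval −0.44 to −0.18, edgeR adjusted p = 0.0019), and −0.26 after correction (0.0019). With hairpin 1 the value was 0.06 (interval −0.07 to 0.19), and the hairpins differed by −0.37 (edgeR adjusted p = 0.00079).

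**Figure D3:**
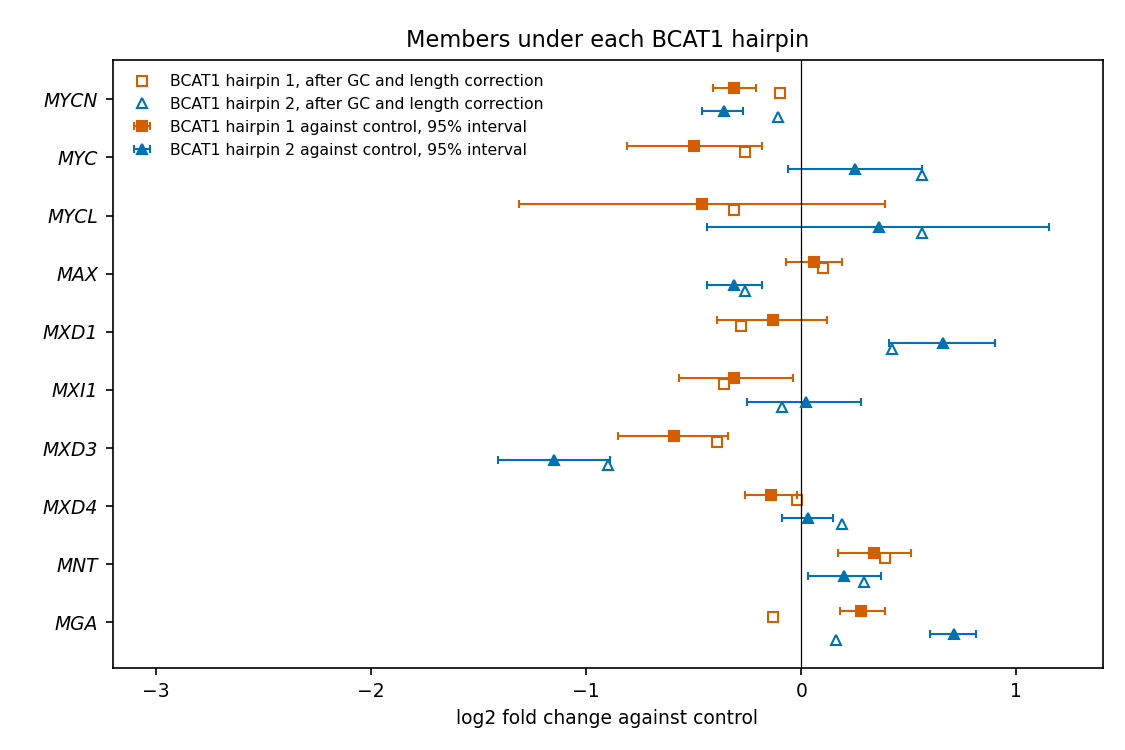
Log2 fold change of each member against control for each hairpin, filled symbols with 95% intervals before correction and open symbols after correction for GC content and length. MXD3 lies left of 0 and MNT right of 0 in all 4 fits, and the open symbols of MGA fall on both sides of 0.

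Among the MXD repressors, MXD3 (ENSG00000213347, chromosome 5, 177301461 to 177312757, minus strand), which is known for its expression in proliferating cells, had the largest change of the 10 members over both hairpins. It stood at 30.9 and 24.7 CPM in control, 18.5 and 18.4 CPM with hairpin 1, and 12.8 and 12.2 CPM with hairpin 2. The groups stepped down without overlap. MXD3 fell 1.51-fold with hairpin 1 (log2 −0.59, interval −0.85 to −0.34, edgeR adjusted p = 0.0022) and 2.22-fold with hairpin 2 (−1.15, −1.41 to −0.89, edgeR adjusted p = 6.4e-05). Between the hairpins the difference was −0.56 (edgeR adjusted p = 0.0039). After correction the values were −0.39 and −0.9, and both passed. Of its exon bases, 40.4% are shared with other genes: 926 with RAB24 on the same strand and 1158 with PRELID1 on the opposite strand. Whether counting used strand is not given in the sources used here, so MXD3 reads cannot be fully told apart from theirs. Over both hairpins RAB24 fell by 0.41 and PRELID1 fell by 0.28 on the log2 scale, and MXD3 fell by 0.87.

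MXD1 (ENSG00000059728, chromosome 2, 69897688 to 69942945, plus strand), the founding MXD gene, linked to differentiation, rose with hairpin 2. It stood at 7.35 and 8.35 CPM in control, 7.22 and 7.09 CPM with hairpin 1, and 12.5 and 12.3 CPM with hairpin 2. Hairpin 2 libraries lay above all others and hairpin 1 libraries just below control. MXD1 rose 1.58-fold with hairpin 2 (log2 0.66, interval 0.41 to 0.9, edgeR adjusted p = 0.0011) and had −0.13 with hairpin 1 (interval −0.39 to 0.12), a difference of 0.79 (edgeR adjusted p = 0.00046). The call over both hairpins, 0.26 (edgeR adjusted p = 0.049), was lost when any 1 library was left out, with values from 0.17 without replicate 1 of control to 0.35 without replicate 2 of control, and after correction (0.07, 0.5). After correction hairpin 1 was −0.28 (edgeR adjusted p = 0.037) and hairpin 2 was 0.42 (0.0041). MXD1 shares 237 exon bases on the same strand with SNRNP27, whose change also differed between the hairpins (−1.81 and 0.49 on the log2 scale).

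MXI1 (ENSG00000119950, chromosome 10, 110207605 to 110287365, plus strand) and MXD4 (ENSG00000123933, chromosome 4, 2247432 to 2262294, minus strand) are the remaining MXD genes. MXI1 stood at 24.9 and 28 CPM in control, 22.4 and 20.4 CPM with hairpin 1, and 23.9 and 29.7 CPM with hairpin 2. MXD4 stood at 92.2 and 84.1 CPM, then 80.6 and 79.5 CPM, then 90.1 and 89.9 CPM in the same order. For both genes the hairpin 1 libraries were the lowest and the hairpin 2 libraries overlapped control. Neither passed against control with either hairpin or both, with hairpin 1 values of −0.31 (edgeR adjusted p = 0.056) for MXI1 and −0.14 (0.052) for MXD4. The hairpins differed by 0.32 for MXI1 (edgeR adjusted p = 0.049) and by 0.17 for MXD4 (0.026). MXI1 lost this call without replicate 1 or 2 of hairpin 1 (0.39 and 0.25) or replicate 2 of hairpin 2 (0.16), and MXD4 without any 1 of the 4 knockdown libraries (0.15 to 0.18), while both passed after correction (0.27 and 0.21). After correction MXI1 fell with hairpin 1 (−0.36, edgeR adjusted p = 0.014), and MXD4 rose with hairpin 2 (0.19, 0.0025).

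MNT (ENSG00000070444, chromosome 17, 2384060 to 2401118, minus strand), a broadly expressed MAX partner that recruits SIN3, was higher with both hairpins. It stood at 21.8 and 22.7 CPM in control, 27.8 and 28.6 CPM with hairpin 1, and 26.5 and 24.6 CPM with hairpin 2. All knockdown libraries were above both controls. MNT rose 1.21-fold over both hairpins (log2 0.27, interval 0.12 to 0.42, edgeR adjusted p = 0.0087) and 1.26-fold with hairpin 1 (0.34, edgeR adjusted p = 0.0056), and did not pass with hairpin 2 (0.2, edgeR adjusted p = 0.055). The difference between the hairpins was −0.14 (interval −0.31 to 0.03). After correction the rise was 0.34 over both (edgeR adjusted p = 0.0014), 0.39 with hairpin 1 and 0.29 with hairpin 2, and all 3 passed. Without replicate 1 of control the call over both hairpins was lost (0.24, edgeR adjusted p = 0.073).

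MGA (ENSG00000174197, chromosome 15, 41621224 to 41773081, plus strand), the PRC1.6 scaffold, rose with both hairpins before correction. It stood at 49 and 49.4 CPM in control, 60.9 and 59 CPM with hairpin 1, and 80.3 and 80.2 CPM with hairpin 2, 3 groups that did not overlap. The rise was 1.22-fold with hairpin 1 (log2 0.28, interval 0.18 to 0.39, edgeR adjusted p = 0.00097) and 1.63-fold with hairpin 2 (0.71, 0.6 to 0.81, edgeR adjusted p = 9e-06). The merged exons of MGA, 27 in number, span 17651 bases, longer than those of 98.4% of the genes in the corrected fit, with a GC content of 42.72%. After correction its value over both hairpins was 0.02 (edgeR adjusted p = 0.77), with hairpin 1 it turned to −0.13 (0.03), and with hairpin 2 it was 0.16 (0.011). The difference between the hairpins remained, 0.42 before and 0.29 after correction (edgeR adjusted p = 0.00011 and 0.00024).

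By hairpin, 2 members rose and 3 fell with hairpin 1, against 49.1% of all genes called (24.2% higher and 24.9% lower). With hairpin 2 also 2 rose and 3 fell, against 49.3% (23.9% higher and 25.4% lower), and total-count scaling changes the split over all genes there from 4486 higher and 4750 lower to 5615 and 3653. MYCN, MXD3 and MGA passed in the same direction with each hairpin, comparisons that share their control libraries. MYC and MNT passed with hairpin 1 alone, and MAX and MXD1 with hairpin 2 alone. The test of hairpin 2 against hairpin 1 called 7 members, 5 higher and 2 lower, against 46.2% of all genes (22.9% higher and 23.3% lower). MYC, MXD1, MXI1, MXD4 and MGA were higher with hairpin 2, MAX and MXD3 lower, and the median over the members was 0.25 against 0.01 over all genes. For MNT the test of the difference did not pass. After correction the balance by hairpin was another one. With hairpin 1, 1 member rose (MNT) and 5 fell (MYCN, MXD1, MXI1, MXD3 and MGA), where 3845 of 13907 genes rose and 4019 fell (56.5% called). With hairpin 2, 5 rose (MYC, MXD1, MXD4, MNT and MGA) and 3 fell (MYCN, MAX and MXD3), where 2984 genes rose and 4348 fell (52.7% called). The 7 differences between the hairpins kept their direction and passed after correction, with 0.82 for MYC, −0.36 for MAX, 0.7 for MXD1, 0.27 for MXI1, −0.51 for MXD3, 0.21 for MXD4 and 0.29 for MGA, where 60.1% of genes were called.

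The balance of the network was summarised per library as the summed TPM of MYCN, MYC and MYCL over the summed TPM of MXD1, MXI1, MXD3, MXD4, MNT and MGA. This ratio was 28.1 and 29.7 in control, 25.4 and 26.1 with hairpin 1, and 21.9 and 22.7 with hairpin 2. The groups did not overlap, and hairpin 2 libraries were lowest. The mean log2 ratio differed by −0.27 between knockdown and control (two-sided exact permutation test, p = 0.133, where the 15 splits of 6 libraries allow no p below 0.067). Without MGA it was −0.19. These TPM values were not corrected for GC content and length, and no corrected ratio was computed. After that correction the log2 fold changes over both hairpins were −0.11 for MYCN and 0.02 for MGA. The summed repressor level was 109 and 102 TPM in control, 106 and 104 TPM with hairpin 1 and 121 and 123 TPM with hairpin 2, so with hairpin 1 the sums overlap control. MYCN per MAX transcript was 49.2 and 47.4 in control, 36.9 and 37.9 with hairpin 1, and 47.4 and 45.8 with hairpin 2, where MAX was lower as well.

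**Figure D4:**
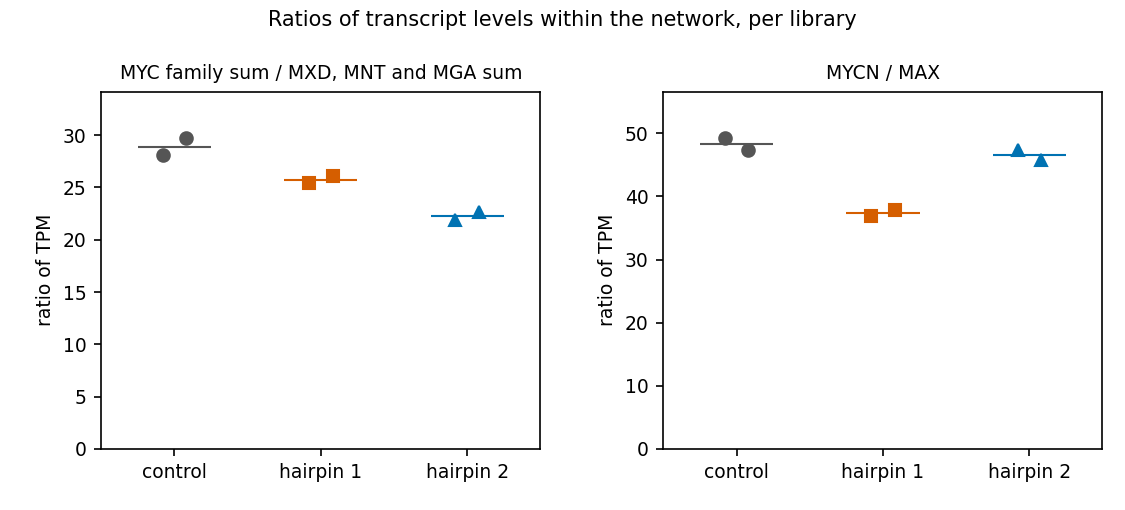
Ratio of summed MYC family to summed MXD, MNT and MGA level (left) and of MYCN to MAX (right), both as ratios of TPM, 1 point per library with the group mean as a line. The left ratio steps down from 28.1 and 29.7 in control to 21.9 and 22.7 with hairpin 2, and the right ratio is lowest with hairpin 1 at 36.9 and 37.9. Neither ratio is corrected for GC content and length.

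Members were also compared with each other and with other genes across the 6 libraries, as a description in which groups of 2 libraries share a hairpin. On log2 CPM the member pairs with the strongest Pearson correlations were MXD3 and MGA (−0.97) and MAX and MXD1 (−0.94). MYCN and MXD3, and MYCL and MXD1, followed with 0.89 each. These levels were not corrected for GC content and length. MXD3 and MGA differ in GC content (62.82% and 42.72%), and the part of this in their correlation was not tested. Among 10999 genes with a mean of at least 5 CPM, the 3 most like MYCN were YBX1, an RNA- and DNA-binding cold shock protein (0.999), VEGFB, a growth factor (0.997), and CD47, a cell surface protein that restrains phagocytosis (0.996). YBX1 stood at 1710 CPM in both control libraries, 1470 CPM in both hairpin 1 libraries, and 1400 and 1480 CPM with hairpin 2. In all, 549 genes had a correlation with MYCN above 0.95, so such likeness was common. YBX1 has processed pseudogenes, between which counting may have split its reads.

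Before correction the 2 tested neighbours of MYCN on chromosome 2 moved in opposite directions over both hairpins. MYCNOS, the antisense transcript (15921037 to 15942249, minus strand), stood at 47.9 and 45.3 CPM in control, 24.7 and 25.2 CPM with hairpin 1, and 29.4 and 28.3 CPM with hairpin 2. It fell by 0.8 on the log2 scale over both hairpins (SE 0.05, edgeR adjusted p = 9.9e-06), and as a noncoding gene it is not in the corrected fit. Exons of MYCN and MYCNOS share 98 bases, whose reads cannot be told apart without strand. DDX1, an RNA helicase gene often amplified together with MYCN, stood at 220 and 224, 240 and 228, and 266 and 262 CPM, and rose by 0.16 (SE 0.04, edgeR adjusted p = 0.0055). After correction DDX1 did not pass (0.03, edgeR adjusted p = 0.4), and with hairpin 1 it did not pass before correction either (0.07). MYCNUT, the third gene of this list, did not pass the filter on low counts.

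The parallel MLX branch joins the network through MNT, MXD1 and MXD4, which can also pair with MLX. MLX stood at 140 and 141 CPM in control, 108 and 112 CPM with hairpin 1, and 109 and 111 CPM with hairpin 2, and fell by 0.35 on the log2 scale over both (SE 0.03, edgeR adjusted p = 5.7e-05; −0.26 after correction). MLXIP, the glucose-sensing partner MondoA, stood at 61.1 and 54.7, 73.5 and 74.3, and 63 and 62.3 CPM, and rose by 0.23 (SE 0.05, edgeR adjusted p = 0.0053; 0.12 after correction). So 1 of the 2 tested genes of the branch fell and 1 rose, and MLXIPL did not pass the filter on low counts.

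Cofactors showed both directions. Their counts stand against 50% of all genes called over both hairpins (23.6% higher and 26.4% lower), and, after correction, against 53% (3079 higher and 4288 lower of 13907). Of the 18 SIN3 complex genes, through which MXD proteins and MNT repress, 5 rose and 5 fell over both hairpins, with a median of −0.05, and after correction 5 rose and 10 fell, with a median of −0.16. NCOR1, a corepressor scaffold, rose by 0.54 on the log2 scale (0.15 after correction), ARID4B by 0.59 (0.16), and BRMS1 fell by 0.34 (0.02 after correction). Of the 13 PRC1.6 genes around MGA, 4 rose and 5 fell, with a median of 0.13, and after correction 2 rose and 5 fell, with a median of −0.05. RYBP, which stimulates RING1-type ubiquitin ligases, rose by 0.54 (0.23 after correction), the deacetylase gene HDAC1 fell by 0.24 (−0.19), and its paralogue HDAC2 had 0.18 before and −0.35 after correction. Of the 18 MYC coactivator genes 7 rose and 7 fell, with a median of 0.05, and after correction 9 rose and 4 fell, with a median of 0.14. CREBBP, a histone acetyltransferase, rose from 55 and 52.9 CPM to 99.9 and 106 CPM with hairpin 1 and 83.3 and 79.4 CPM with hairpin 2 (log2 0.76, SE 0.04, edgeR adjusted p = 5.2e-06, and 0.57 after correction). BPTF, a chromatin remodelling subunit, rose by 0.66 (0.22 after correction), and EP400, a subunit of the TIP60 complex, by 0.45 (0.26).

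Of the 8 tested other factors that bind E-boxes, 1 rose and 4 fell over both hairpins, with a median of −0.14, against 23.6% of all genes higher and 26.4% lower. After correction 2 rose and 2 fell, with a median of −0.05, where 3079 of all 13907 genes rose and 4288 fell. With 8 genes these counts are small. USF1 fell by 0.49 (−0.2 after correction) and SREBF1, a regulator of lipid synthesis, by 0.53 (−0.41), whereas USF2, the partner of USF1, rose by 0.38 (0.6 after correction).

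Textbook targets give the far end of the network. This list and that of the repressed genes were chosen with earlier results of these data known, so their counts are no independent test. Of 41 tested genes known to be activated by MYC and MYCN, 6 rose and 23 fell over both hairpins, where 23.6% of all genes rose and 26.4% fell, with a median of −0.25 against −0.01 over all genes. By hairpin the counts were 9 and 19 with hairpin 1 (median −0.12; all genes 24.2% and 24.9%) and 6 and 28 with hairpin 2 (median −0.39; all genes 23.9% and 25.4%). After correction they were 8 and 19 over both (median −0.09), 14 and 13 with hairpin 1 (median −0.01), and 3 and 23 with hairpin 2 (median −0.15). Over all 13907 genes the corrected counts were 3079 and 4288, 3845 and 4019, and 2984 and 4348 in the same order, so the excess of falls with hairpin 1 was lost. NOLC1, a nucleolar factor, stood at 400 and 416 CPM in control, 183 CPM in both hairpin 1 libraries, and 311 and 306 CPM with hairpin 2 (log2 −0.78 over both before and after correction, edgeR adjusted p = 1.7e-06 before). NME1, a nucleoside diphosphate kinase, stood at 329 and 326, 221 and 243, and 147 and 132 CPM (−0.87 before and −0.82 after correction). SRM, spermidine synthase, was opposed between the hairpins, with 184 and 176 CPM in control, 200 and 207 CPM with hairpin 1 and 77.4 and 80.3 CPM with hairpin 2. The log2 values of SRM were 0.17 and −1.19, and the difference between the hairpins, −1.37, passed (edgeR adjusted p = 2.7e-07). After correction they were 0.59 and −0.71, with a difference of −1.31.

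Of 20 genes known to be repressed by MYC and MYCN, 3 rose and 9 fell over both hairpins, with a median of −0.21, against 23.6% of all genes higher and 26.4% lower. With hairpin 1 the counts were 2 and 11 (median −0.55; all genes 24.2% and 24.9%), and with hairpin 2 they were 6 and 7 (median 0.02; all genes 23.9% and 25.4%). After correction 5 rose and 8 fell over both (median 0), 5 and 10 with hairpin 1 (median −0.46), and 10 and 4 with hairpin 2 (median 0.2), so the balance with hairpin 2 turned to rises. Over all 13907 genes the corrected counts were 3079 and 4288, 3845 and 4019, and 2984 and 4348 in the same order. TGM2, tissue transglutaminase, fell from 165 and 158 CPM to 27.2 and 26.1 CPM with hairpin 1 and 33.8 and 32.6 CPM with hairpin 2 (log2 −2.44, SE 0.04, edgeR adjusted p = 1.9e-08; −2.4 after correction). DKK3, a secreted Dickkopf family protein, fell with hairpin 1 (log2 −1.51, and −1.4 after correction) and rose with hairpin 2 (0.34 and 0.49), a difference of 1.84 between the hairpins (edgeR adjusted p = 1.2e-07).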

How the data were processed

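RNA was measured in 6 libraries of SK-N-BE(2) cells, 2 per hairpin group. The deposited values are raw counts of reads per Ensembl gene, in whole numbers. The submitters' processing notes list HISAT2 2.2.0, StringTie and hg38. Annotation release, counting options and strand use: not given in the sources used here. Gene symbols were found for 40995 of 64252 rows.

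Tests used edgeR 4.0.16 (R 4.3.3): filterByExpr by group with a minimum count of 10, TMM, glmQLFit and glmQLFTest with 1 term per group and 3 residual degrees of freedom, two-sided, with Benjamini-Hochberg adjustment over 18734 genes and a threshold of 0.05. Standard errors were the absolute log2 fold change over the root of F. TPM used merged exon lengths of GENCODE release 29, and 1.84% to 2.09% of counts fell on genes without a length. The correction for GC content and length used mgcv 1.9.3. The test was run on simulated counts with known changes first. That simulation changed far fewer genes than were called here, so it gives no measure of error at this share of called genes. Replicates differed by more than sampling noise (mean chi-square per gene 5.73 to 8.23).

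Besides members, BCAT1 and MYCNOS, the text names the 3 genes of each list with the smallest p over both hairpins and the 3 genes most like MYCN; a gene that this rule names is left out of the text. Genes whose exons overlap a member were chosen after their values were seen. The members and lists were chosen with earlier results of these data known. Alternatives were RLE size factors, no or a stricter filter (1 CPM), DESeq2 1.42.0, limma-voom (limma 3.58.1), a replicate block, only the groups compared, a fold threshold of 1.5, the correction, and each library left out. Total-count scaling and the protein-coding genes without correction were added after seeing the data.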

Additional observations from a re-analysis of the deposited data

Results flagged for a closer look

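The effects of the hairpins differed for 5 members whose hairpins had opposite signs against control, by edgeR's test of hairpin 2 against hairpin 1. MYC differed by 0.75 on the log2 scale (−0.5 with hairpin 1 and 0.25 with hairpin 2). MAX differed by −0.37 (0.06 and −0.31), and MXD1 by 0.79 (−0.13 and 0.66). MXI1 differed by 0.32 (−0.31 and 0.02) and MXD4 by 0.17 (−0.14 and 0.03), and these smaller differences missed the threshold in some fits that left a library out, with values of 0.16 to 0.47 for MXI1 and 0.15 to 0.18 for MXD4. Both passed after correction for GC content and length (0.27 and 0.21, edgeR adjusted p = 0.047 and 0.0013).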

How the results depend on the processing

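Over 18 settings and 706 values of members, 630 kept their side of the threshold, 24 gained a call, 50 lost one and 2 reversed. Among the 630 were 16 uncalled values that changed sign. The reversed values are those of MGA with hairpin 1 in the fits corrected for GC content and length, −0.13 with the replicate block and without it. With a fold above 1.5 required, calls fell to 1039 genes over both hairpins, 1769 with hairpin 1, 1397 with hairpin 2 and 1774 between the hairpins, and members called fell from 5, 5, 5 and 7 to 1 (MXD3), 0, 2 (MXD3 and MGA) and 0. At an unadjusted p under 0.05 edgeR's glmTreat gave 0 members for hairpin 1 and 2 (MYC and MXD1) between the hairpins. After correction 3 members were called over both hairpins and 8 with hairpin 2, also with the replicate block. Leaving out 1 library gave 3 to 5 members over both hairpins, the lowest without replicate 1 of control; the lone library left in a group is then assumed to vary like the other groups. MXD1 over both hairpins lost its call with no filter (edgeR adjusted p = 0.1), with DESeq2 (0.12), and in each fit that left a library out (0.051 to 0.31). The log2 ratio of the family sums ran from −0.22 to −0.31 with a library left out, and was −0.39 on CPM without length scaling.

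Replicate numbers showed no sign of pairing the samples. The differences in log2 CPM between replicate 1 and replicate 2 of a group had correlations of 0, −0.04 and −0.03 between groups. With the replicate block 9000, 8802, 8841 and 8218 genes and 4, 5, 5 and 6 members were called over both hairpins, with hairpin 1, with hairpin 2 and between the hairpins. Under the block MXD1 over both hairpins (edgeR adjusted p = 0.07) and MXI1 between the hairpins (0.061) were not called. Using only the groups compared gave no separate fit for both hairpins together, since that comparison uses all libraries. With 2 libraries per group, MYCL at 11 to 27 counts could not be resolved.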
